A study of Drosophila melanogaster with 30 samples.

Results

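Scp1, a sarcoplasmic calcium-binding protein gene, and the troponin C genes TpnC4, TpnC25D, TpnC41C, TpnC47D and TpnC73F were followed through an RNA-seq study of age and sleep in Drosophila melanogaster. They are the 6 genes, of 17559 in the count table, whose symbol is Scp1 or begins with TpnC. Scp1 was chosen by its measured counts, with its difference between aged and young bodies already known, so its values are a description with no test. The 5 troponin C genes came in by name and were tested together with all other genes. Poly(A) RNA was sequenced from bodies and heads of single adult males of the Cantonized w1118 strain, in 6 groups of 5 libraries. Aged SF flies were 25 days old and had fragmented sleep in a behavioural assay. Aged NSF flies were 25 days old and slept normally. Young flies were 5 days old and slept normally, and no young fly with fragmented sleep was analysed here. A head library holds the muscles of the head capsule, and a body library holds those of thorax, legs and abdomen together with all other body tissues.

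Contraction of striated muscle is switched on by calcium released from the sarcoplasmic reticulum. Troponin C is the calcium sensor of the thin filament: with troponin I (encoded by wupA) and troponin T (encoded by up) it sits on tropomyosin (Tm1 and Tm2) and lets myosin reach actin once calcium binds. Flies have several troponin C genes, used in different muscle types. TpnC4 is the isoform known for stretch activation in the indirect flight muscles, TpnC41C is used in flight and jump muscle, TpnC47D and TpnC73F serve other, tubular muscles of larvae and adults, and TpnC25D is a further isoform. Scp1 is an EF-hand protein of the sarcoplasm that buffers calcium, and the pump Ca-P60A (SERCA) returns calcium to the reticulum.

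Scp1 (FBgn0020908) lies at 2R:2932595-2968052 on the minus strand of the BDGP6 (dm6) assembly. TpnC41C (FBgn0013348) lies at 2R:5065237-5070210, TpnC4 (FBgn0033027) at 2R:5503437-5507866 and TpnC47D (FBgn0010423) at 2R:11273845-11275286, all on the minus strand. TpnC25D (FBgn0031692) lies at 2L:5216701-5219053 and TpnC73F (FBgn0010424) at 3L:17046063-17048390, both on the plus strand. Reads were counted over exons. Of the 6 genes only TpnC25D shared exonic sequence with another annotated gene, 4.32% of its exonic length with tkv on the opposite strand; the strand setting of the counting is not given, so reads of the pair may not be told apart there. How far similar coding sequence among the TpnC genes moved reads between them, or out of the table through the filter on mapping quality, was not tested.

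Libraries held 2458538 to 8060238 counted reads in bodies and 1685034 to 3597530 in heads, so a count of 0 allows up to 0.372 to 1.22 CPM (reads scaled to the library's total) in bodies and up to 0.834 to 1.78 CPM in heads, for counting error only. Photoreceptor markers summed to 34069 to 59141 CPM in heads, and to 17.6 to 45.9 CPM in all bodies but one. Aged NSF body 2 stood apart with 674 CPM of these markers and 727 CPM of yolk protein genes, which were at 22.4 to 75.5 CPM in the other bodies. Aged NSF body 1 held 371 CPM of testis transcripts, against 2459 to 6293 CPM in the other bodies. Results of the members and of the gene lists in bodies are therefore also given without these 2 libraries where a call changes. The 8 muscle markers (Mhc, Act88F, Act57B, Mlc2, Tm1, Tm2, up and wupA) were read in every library. Their sum in bodies was 2943 to 4479 CPM in aged SF flies, 4777 to 7321 CPM in aged NSF flies and 7155 to 8473 CPM in young flies. In heads it was 2437 to 3045 CPM in aged SF flies, 2721 to 3768 CPM in aged NSF flies and 4952 to 6227 CPM in young flies. Accessory-gland markers in bodies summed to 654 to 2711 CPM in aged SF flies, 1021 to 4118 CPM in aged NSF flies and 2822 to 4072 CPM in young flies, and hemocyte markers to 28.1 to 46.5, 37.1 to 81.5 and 59.3 to 107 CPM in the same groups. Testis markers in bodies summed to 2471 to 3675 CPM (median 3009) in aged SF flies and 371 to 3407 CPM (median 2743) in aged NSF flies. In young bodies they summed to 2532 to 6293 CPM (median 5610). The part of these marker totals in the results below was not tested, and in RNA from whole body parts fewer muscle cells and less RNA per muscle cell cannot be told apart.

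Scp1 was far lower in aged than in young bodies. The 5 aged SF bodies had 58.9, 74.2, 72.2, 26.6 and 73.3 CPM. The 5 aged NSF bodies had 79.7, 48.7, 36.5, 36.8 and 57.1 CPM. The 5 young bodies had 1058, 1042, 924, 1252 and 1058 CPM. The lowest young body lay far above the highest aged body, so the groups did not overlap. The means were 61.1 ± 20.2 CPM in aged SF bodies, 51.8 ± 17.9 CPM in aged NSF bodies and 1067 ± 118 CPM in young bodies (SD, n = 5 each). The fitted log2 fold change was -4.09 ± 0.28 for aged SF over young and -4.36 ± 0.28 for aged NSF over young (SE, edgeR), which share the young libraries. In linear terms aged SF bodies held 0.0572 and aged NSF bodies 0.0485 of the young level. Without aged NSF bodies 1 and 2 the values were -4.11 ± 0.24 and -4.60 ± 0.31.

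**Figure D1:**
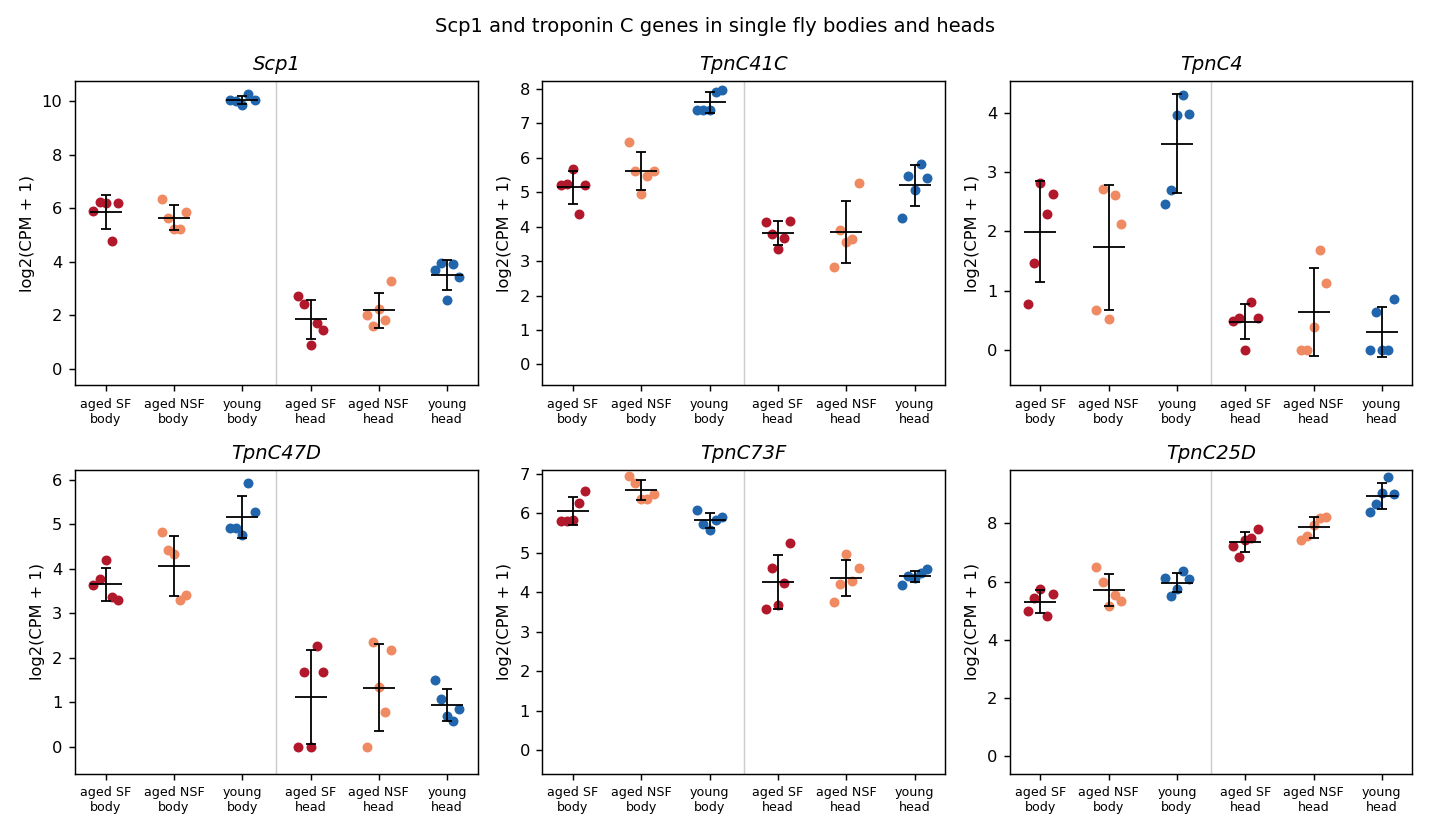
Level of each gene in each library, as log2(CPM + 1), with 1 point per fly, the group mean as a horizontal line and the SD as a bar (n = 5). Young bodies stand apart for Scp1, at 924 to 1252 CPM, and TpnC25D is the member that is highest in heads.

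Between the sleep groups the Scp1 ranges of aged bodies overlapped, and the log2 difference of aged SF over aged NSF was 0.28 ± 0.25. Without aged NSF bodies 1 and 2 it was 0.49 ± 0.25. In heads Scp1 was read only 2 to 53 times per library. Aged SF heads had 0.869 to 5.67 CPM (median 2.27), aged NSF heads 2.04 to 8.83 CPM (median 3.04) and young heads 5.04 to 14.7 CPM (median 12). The lowest young head lay within the range of both aged groups. The log2 fold change in heads was -1.89 ± 0.51 for aged SF over young and -1.53 ± 0.49 for aged NSF over young, and -0.36 ± 0.53 for aged SF over aged NSF. Without aged NSF head 5, the highest of its group, the last of these was 0.08 ± 0.54.

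Per kilobase of exon, Scp1 stood at 50.3 RPKM in aged SF bodies, 43.1 RPKM in aged NSF bodies and 873 RPKM in young bodies, and at 2.38, 3.27 and 9.11 RPKM in aged SF, aged NSF and young heads. In the order of group means, young bodies came first, apart from all others. The 2 aged body groups overlapped with each other, and the 3 head groups, which were lowest, each overlapped with the next. The log2 difference of body over head was 4.69 ± 0.38 in aged SF flies, 4.04 ± 0.36 in aged NSF flies and 6.80 ± 0.36 in young flies. The aged over young log2 change in bodies minus that in heads was -2.11 ± 0.52 for aged SF and -2.77 ± 0.50 for aged NSF.

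Among the troponin C genes, TpnC41C fell in bodies of both aged groups. Aged SF bodies had 35.7, 37, 50.3, 19.5 and 36 CPM. Aged NSF bodies had 87.5, 48.2, 30, 43 and 48 CPM. Young bodies had 167, 165, 166, 240 and 250 CPM. No aged body reached a young one, although aged NSF body 1, the library with few testis transcripts, was the highest of the aged bodies. The log2 fold change was -2.43 ± 0.27 for aged SF over young (adjusted p = 4.22e-05, from edgeR's quasi-likelihood test with the Benjamini-Hochberg method) and -1.95 ± 0.27 for aged NSF over young (adjusted p = 0.000111). Without aged NSF bodies 1 and 2 they were -2.44 ± 0.21 and -2.28 ± 0.26.

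TpnC47D, an isoform of tubular muscle, also fell in bodies. It averaged 11.9 ± 3.45 CPM in aged SF bodies, 17.0 ± 7.75 CPM in aged NSF bodies and 36.3 ± 13.8 CPM in young bodies (SD, n = 5 each). The aged SF bodies, at 8.76 to 17.4 CPM, did not reach the young bodies, at 25.9 to 59.7 CPM, whereas 1 aged NSF body, at 27.2 CPM, did. The log2 fold change was -1.55 ± 0.32 for aged SF over young (adjusted p = 0.00436) and -1.09 ± 0.32 for aged NSF over young (adjusted p = 0.0143). The second call rested on young body 4, the highest at 59.7 CPM: without it the adjusted p was 0.0519. Without aged NSF bodies 1 and 2 the difference of aged NSF over young was -1.49 ± 0.32 (adjusted p = 0.00105).

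TpnC4, the flight-muscle isoform, was the lowest member in bodies, also per exonic length. Aged SF bodies had 0.717 to 6.09 CPM (median 3.9), aged NSF bodies 0.429 to 5.55 CPM (median 3.39) and young bodies 4.53 to 18.9 CPM (median 14.6), from 2 to 78 reads per library. The aged and young ranges overlapped at 4.53 to 6.09 CPM, where young bodies 1 and 2 lay. TpnC4 fell in aged NSF over young bodies, with a log2 fold change of -1.95 ± 0.67 (adjusted p = 0.0295), and was at -1.68 ± 0.64 in aged SF over young bodies, which missed the threshold (adjusted p = 0.0954). The call in aged NSF was lost when young body 3, 4 or 5 or aged NSF body 3 was left out, with adjusted p of 0.0615, 0.0651, 0.0552 and 0.0543. In the aged SF comparison DESeq2 gave an adjusted p of 0.0377 and limma voom one of 0.0136, and edgeR without aged NSF bodies 1 and 2 gave 0.0428. Of other flight-muscle genes, the thick-filament-binding protein gene fln had 0.713 ± 0.377 CPM in aged SF, 2.15 ± 3.82 CPM in aged NSF and 8.95 ± 4.27 CPM in young bodies, and Act88F, the flight-muscle actin, 45.3 ± 38.7, 49.2 ± 28.1 and 98.7 ± 28.4 CPM.

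TpnC73F went the other way in 1 of the 2 comparisons. Aged SF bodies had 54.7, 54.3, 56, 75.7 and 93.4 CPM. Aged NSF bodies had 121, 107, 81.1, 81.5 and 89.2 CPM. Young bodies had 66.6, 52.1, 46.5, 56 and 59.1 CPM. All aged NSF bodies lay above all young bodies, while the aged SF bodies overlapped with both. TpnC73F rose in aged NSF over young bodies by 0.78 ± 0.18 on the log2 scale (adjusted p = 0.00461). In aged SF over young bodies the difference was 0.30 ± 0.18 (adjusted p = 0.287). Without aged NSF bodies 1 and 2 the rise was 0.60 ± 0.19 (adjusted p = 0.0154).

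TpnC25D had 39.8 ± 10.7 CPM in aged SF bodies, 54.4 ± 22.3 CPM in aged NSF bodies and 62.9 ± 14.5 CPM in young bodies, and these groups overlapped. It passed the test in neither comparison, with -0.62 ± 0.26 for aged SF over young (adjusted p = 0.123) and -0.22 ± 0.26 for aged NSF over young (adjusted p = 0.514). The calls depended on the libraries that stood apart: without aged NSF bodies 1 and 2 both differences were -0.63 and passed, with an SE of 0.20 and an adjusted p of 0.0198 for aged SF, and an SE of 0.23 and an adjusted p of 0.0324 for aged NSF. Aged NSF body 1 had the highest TpnC25D level of all bodies, 89.9 CPM.

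Counted over the 5 troponin C genes, 0 rose and 2 fell in aged SF over young bodies, a comparison in which 14.4% of all 12009 tested genes were called, 11.1% higher and 3.26% lower. The split over all genes moved with the scaling and the libraries: there were 1336 higher and 391 lower calls with TMM and all libraries, 977 and 489 with RLE scaling, 1629 and 1762 without aged NSF body 1, and 1637 and 1732 in a fit of aged SF and young bodies alone. In aged NSF over young bodies 1 rose and 3 fell, where 41.1% of all tested genes were called, 21.7% higher and 19.4% lower. With aged NSF bodies 1 and 2 left out, 0 rose and 4 fell in aged SF over young bodies, where 13.2% of 12392 tested genes were called higher and 14.2% lower. In the same fit 1 rose and 4 fell in aged NSF over young bodies, where 19.7% were called higher and 20.7% lower. Of the 5 troponin C genes, 2 in aged SF bodies (TpnC41C and TpnC47D) and 1 in aged NSF bodies (TpnC41C) lay wholly below the young bodies. The same held for 6.14% and 13.3% of all tested genes. In aged NSF bodies 1 of the 5, TpnC73F, lay wholly above the young bodies, as did 13.9% of all tested genes.

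**Figure D2:**
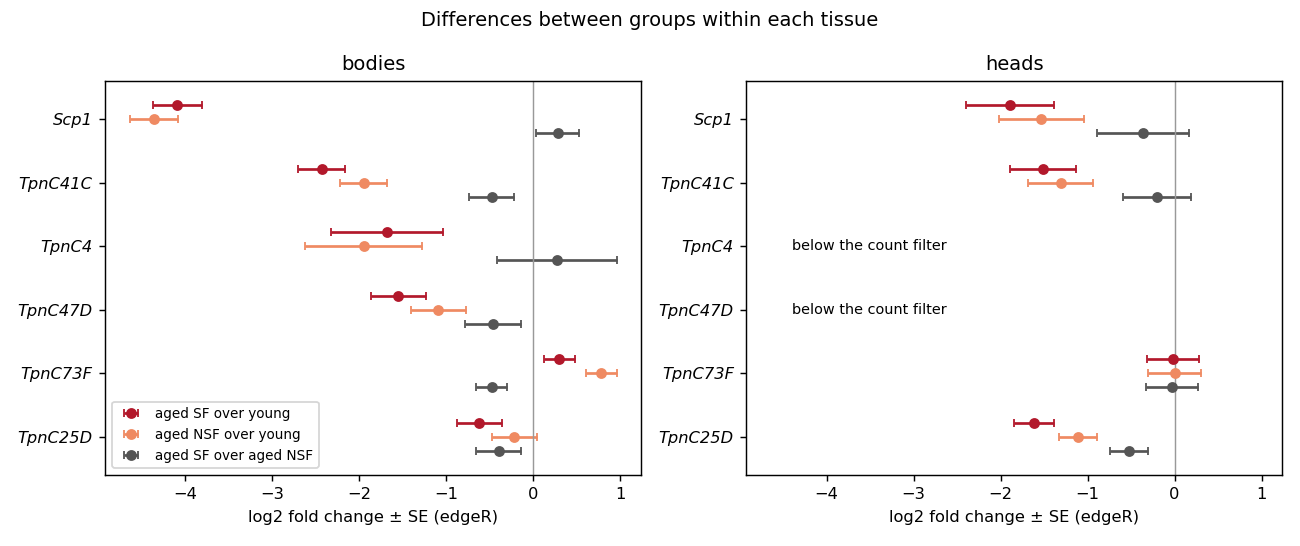
Fitted log2 fold change ± SE (edgeR) of each gene between the groups of a tissue, bodies on the left and heads on the right; TpnC4 and TpnC47D were too low to be tested in heads. In bodies the aged over young differences run from -4.36 for Scp1 to 0.78 for TpnC73F, and the aged SF over aged NSF differences run from -0.52 to 0.28 over both tissues.

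Heads had another leading member. TpnC25D was the most abundant troponin C gene there, per exonic length, and fell in both aged groups. Aged SF heads had 148, 114, 171, 179 and 221 CPM. Aged NSF heads had 170, 188, 243, 290 and 299 CPM. Young heads had 334, 404, 526, 775 and 517 CPM. Every young head lay above every aged head. The log2 fold change was -1.62 ± 0.23 for aged SF over young (adjusted p = 3.73e-05) and -1.11 ± 0.22 for aged NSF over young (adjusted p = 0.0013).

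TpnC41C fell in heads as it did in bodies, at lower levels. Aged SF heads had 9.12 to 16.8 CPM (median 12.8), aged NSF heads 6.08 to 37.7 CPM (median 11.4) and young heads 18 to 55 CPM (median 41.6). Aged SF heads lay wholly below young heads, and of the aged NSF heads only head 5, at 37.7 CPM, reached them. The log2 fold change was -1.51 ± 0.38 for aged SF over young (adjusted p = 0.00532) and -1.31 ± 0.37 for aged NSF over young (adjusted p = 0.0144). A fit of aged NSF and young heads alone gave -1.30 ± 0.44 for the second, which missed the threshold (adjusted p = 0.0533).

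TpnC73F overlapped between all head groups, with 20.1 ± 10.5 CPM in aged SF heads, 20.4 ± 6.7 CPM in aged NSF heads and 20.2 ± 2.14 CPM in young heads. Its log2 fold change was -0.02 ± 0.30 for aged SF over young and 0.00 ± 0.30 for aged NSF over young. TpnC4 was read 0 to 6 times and TpnC47D 0 to 12 times per head, too few to be tested. Of the 3 troponin C genes tested in heads, 2 fell and 0 rose in aged SF over young, where 25.2% of 9088 tested genes were called, 13% higher and 12.2% lower. The same count held in aged NSF over young, where 22.8% were called, 11.4% higher and 11.5% lower. Wholly below the young heads lay 2 of the 3 tested in aged SF heads (TpnC25D and TpnC41C), as did 8.37% of all tested genes, and 1 in aged NSF heads (TpnC25D), as did 7.88%. Markers of other tissues also differed with age in heads: the gut list summed to 580 to 1645 CPM in aged SF heads, 576 to 1626 CPM in aged NSF heads and 51.7 to 124 CPM in young heads, nearly all of it the amylase genes Amy-p and Amy-d, while the trypsin gene alphaTry stayed at 0 to 3.8 CPM. The fat body list summed to 963 to 3069 CPM in aged SF heads, 787 to 2508 CPM in aged NSF heads and 4152 to 7716 CPM in young heads. Hemocyte markers summed to 60.9 to 80.2, 80.1 to 136 and 129 to 191 CPM in the same groups. The part of these shifts in the head results was not tested.

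Sleep fragmentation was compared within the aged flies. No troponin C gene passed the test in aged SF over aged NSF, in bodies or in heads, with edgeR, DESeq2 or limma voom. At an unadjusted p under 0.05 there was 1 of 5 in bodies, against 2086 of all 12009 tested genes. In heads there was 1 of 3, against 848 of 9088. Few genes passed at the adjusted threshold: 0% of 12009 tested genes in bodies with edgeR (641 genes with DESeq2 and 417 with limma voom) and 0.253% of 9088 in heads. In bodies the fitted differences were -0.48 ± 0.26 for TpnC41C (adjusted p = 0.352), -0.48 ± 0.18 for TpnC73F (adjusted p = 0.204), -0.46 ± 0.32 for TpnC47D (adjusted p = 0.452), -0.40 ± 0.26 for TpnC25D (adjusted p = 0.411) and 0.27 ± 0.69 for TpnC4 (adjusted p = 0.85). In heads they were -0.52 ± 0.22 for TpnC25D (adjusted p = 0.469), -0.20 ± 0.39 for TpnC41C (adjusted p = 0.917) and -0.03 ± 0.30 for TpnC73F (adjusted p = 0.983). Without aged NSF bodies 1 and 2 the body values of TpnC41C, TpnC47D and TpnC25D were -0.17, -0.08 and -0.00. The partners did not pass either. In bodies their log2 differences were -0.55 for Tm1 (adjusted p = 0.097), -0.53 for up (adjusted p = 0.0977), -0.44 for wupA, -0.39 for Tm2, -0.24 for Mhc, -0.12 for Ca-P60A and -0.08 for Act88F. In heads they were at -0.50 for up, -0.42 for Tm2, -0.40 for wupA, -0.21 for Tm1, -1.06 for Act88F, -0.07 for Mhc and -0.01 for Ca-P60A, with adjusted p of 0.259 or more.

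The members were split between the tissues. TpnC25D was lower in bodies than in heads, with a difference of -1.70 ± 0.25 in aged SF flies (adjusted p = 7.04e-07), -1.87 ± 0.25 in aged NSF flies (adjusted p = 1.44e-07) and -2.76 ± 0.26 in young flies (adjusted p = 7.82e-11) on the log2 scale. The other 4 troponin C genes were higher in bodies in each of the 3 conditions. Of these, TpnC4 and TpnC47D were read only 0 to 6 and 0 to 12 times per head. They failed the count filter among heads and entered the joint fit through their body counts, so their direction was largely set in advance. The log2 differences of the 4 genes in aged SF flies were 3.31 ± 0.89 for TpnC4, 3.18 ± 0.56 for TpnC47D, 2.11 ± 0.25 for TpnC73F and 1.78 ± 0.36 for TpnC41C. In aged NSF flies they were 2.29 ± 0.83, 3.39 ± 0.54, 2.50 ± 0.25 and 2.0 ± 0.35 in the same order of genes. In young flies they were 5.23 ± 0.90, 5.36 ± 0.60, 1.73 ± 0.25 and 2.64 ± 0.34. All 5 were called in each condition, though for TpnC4 and TpnC47D the call adds little beyond the filter. Of 12318 tested genes, 65.1% were called in aged SF flies (44.7% higher and 20.3% lower in bodies), 64.5% in aged NSF flies (44.5% and 20%) and 70.8% in young flies (43.1% and 27.7%). The TpnC4 call in aged NSF flies (adjusted p = 0.0173) was lost without aged NSF body 4 (adjusted p = 0.0534). The partners passed and were higher in bodies too, on the log2 scale: wupA by 1.74 in aged SF, 1.71 in aged NSF and 1.27 in young flies, up by 1.29, 1.25 and 1.33, Tm1 by 1.19, 1.48 and 0.91, Tm2 by 1.33, 1.23 and 1.01, Act88F by 4.32, 3.26 and 2.01, Mhc by 0.76, 0.87 and 0.63, and Ca-P60A by 0.70, 0.74 and 1.19.

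Whether the aged over young difference itself differed between bodies and heads was tested as an interaction. No troponin C gene passed with edgeR, against 6.86% of all genes for aged SF over young, 13.2% for aged NSF over young and 0% for aged SF over aged NSF. At an unadjusted p under 0.05 there were 2, 4 and 0 of the 5, against 2559, 3445 and 1259 of all 12318 tested genes. DESeq2 called 1, 1 and 0 of the 5, and limma voom 1, 0 and 0. TpnC4 and TpnC47D entered this test too through their body counts. TpnC25D came nearest, with a body minus head difference of 1.06 ± 0.35 for aged SF over young (adjusted p = 0.0618), which passed without aged NSF bodies 1 and 2 (adjusted p = 0.0278). For aged NSF over young it was 0.89 ± 0.35 (adjusted p = 0.0879), and 0.48 ± 0.33 (adjusted p = 0.372) without those 2 bodies. Over all genes the median of this contrast was 0.15 for aged SF and 0.09 for aged NSF with TMM scaling, against -0.06 and -0.12 with RLE scaling, and no troponin C gene changed sign between them. The jump-muscle actin gene Act79B did pass: it had 211 ± 57.7 CPM in aged SF bodies, 282 ± 58.8 CPM in aged NSF bodies and 1371 ± 210 CPM in young bodies, against 36.1 ± 9.72, 41.5 ± 11.6 and 48.0 ± 13.6 CPM in the heads of the same groups. Its interaction was -2.16 ± 0.31 for aged SF (adjusted p = 3.82e-05) and -2.05 ± 0.30 for aged NSF (adjusted p = 5.43e-05). Actin genes share nearly identical coding sequence, so levels of a single actin gene are uncertain.

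The troponin C mixture of a library, computed from reads per exonic length, does not depend on the scaling between libraries. In bodies TpnC41C made up 14.3% ± 3.91 of troponin C in aged SF flies, 14.4% ± 2.65 in aged NSF flies and 39.2% ± 2.92 in young flies (SD, n = 5 each). TpnC73F made up 47.5% ± 9.82, 49.5% ± 4.34 and 20.2% ± 3.89 in the same groups. Neither share overlapped between aged and young flies: the aged bodies ran from 8.66% to 17.8% for TpnC41C and from 35.1% to 59.7% for TpnC73F, the young bodies from 35.8% to 43.2% and from 15.4% to 25.3%. The ratio of TpnC41C over TpnC73F was 0.324 ± 0.143 in aged SF bodies, 0.294 ± 0.0739 in aged NSF bodies and 2.0 ± 0.42 in young bodies. TpnC73F was thus the leading troponin C transcript in aged bodies and TpnC41C in young bodies. The other shares differed less: TpnC25D had 23.8%, 22.7% and 18.8%, TpnC47D 11.5%, 11.4% and 16.8%, and TpnC4 2.97%, 2.05% and 5.0% of troponin C in aged SF, aged NSF and young bodies.

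**Figure D3:**
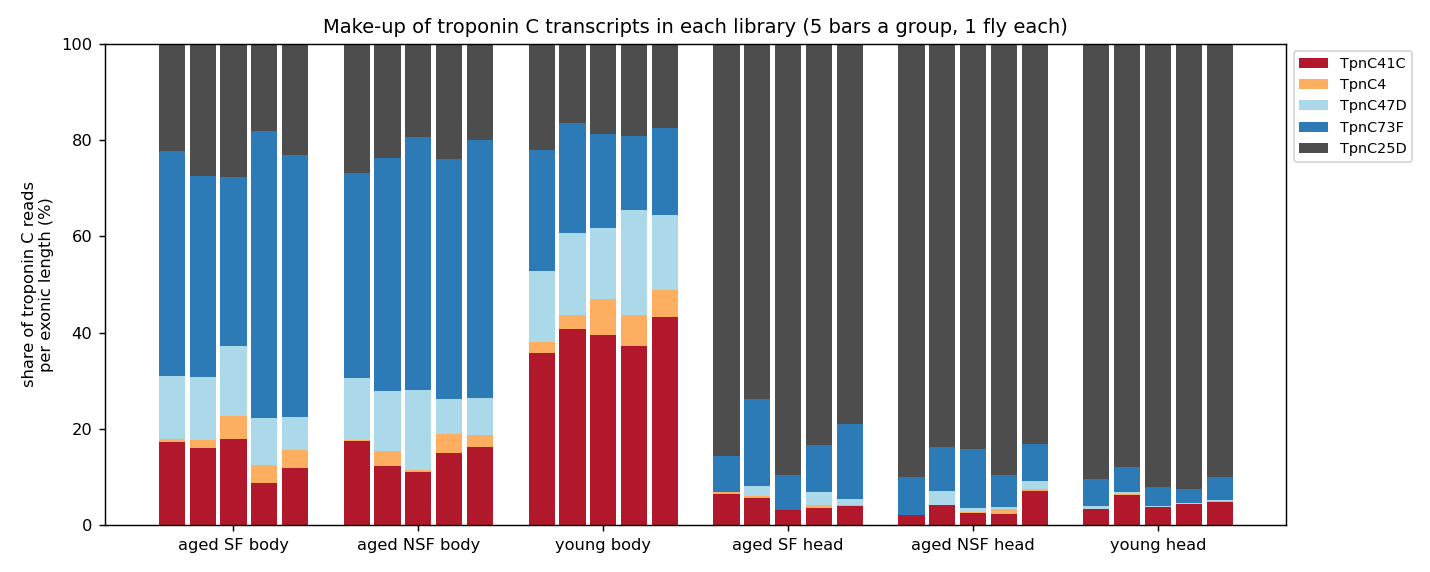
Share of each troponin C gene in the summed troponin C reads per exonic length, with 1 stacked bar per library and groups of 5 flies. TpnC73F takes 35.1% to 59.7% of troponin C in aged bodies, TpnC41C takes 35.8% to 43.2% in young bodies, and TpnC25D fills at least 74.0% of every head.

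In heads TpnC25D made up 82.3% ± 6.04 of troponin C in aged SF flies, 86.2% ± 3.34 in aged NSF flies and 90.6% ± 1.81 in young flies. The share of TpnC73F was 11.6% ± 4.83, 8.75% ± 2.17 and 4.48% ± 0.995, with every aged head above every young head. In CPM TpnC73F overlapped between the head groups, and TpnC25D was lower in aged heads. Measured per length against all troponin C together, Scp1 stood at 0.374 ± 0.117 in aged SF bodies, 0.226 ± 0.0442 in aged NSF bodies and 3.31 ± 0.443 in young bodies. In heads the ratio was 0.0169 ± 0.0135, 0.0144 ± 0.00682 and 0.0219 ± 0.0106, and the groups overlapped. Scp1 transcripts outnumbered troponin C transcripts in young bodies alone among the 6 groups.

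Read counts were also set against those of wupA, the troponin I gene, a reference chosen after the data had been seen. wupA itself was not constant: it had 313 to 443 CPM in aged SF, 456 to 686 CPM in aged NSF and 621 to 805 CPM in young bodies. In heads of the same groups it had 144 to 170, 162 to 247 and 265 to 461 CPM. A value per wupA read is therefore also higher where wupA is lower. Per 100 wupA reads, aged SF bodies held 14.9 ± 4.04 reads of Scp1, aged NSF bodies 9.09 ± 2.02 and young bodies 151 ± 13.4. For TpnC41C the values were 8.74 ± 2.05, 8.9 ± 2.34 and 27.6 ± 3.16, and for Ca-P60A 165 ± 19.4, 133 ± 19.2 and 574 ± 42. None of these 3 genes overlapped between aged and young bodies on this scale. TpnC73F ran opposite, at 16.9 ± 5.31 reads in aged SF bodies, 17.1 ± 1.87 in aged NSF bodies and 7.91 ± 0.895 in young bodies, again without overlap. In CPM, however, TpnC73F of aged SF bodies overlapped with that of young bodies and did not pass the edgeR test (0.30 ± 0.18, adjusted p = 0.287). TpnC25D overlapped between the groups, at 9.85 ± 2.02, 9.47 ± 2.58 and 8.76 ± 1.22 reads. In heads TpnC25D had 106 ± 23 reads per 100 wupA reads in aged SF flies, 114 ± 8.91 in aged NSF flies and 142 ± 19.1 in young flies, with overlapping ranges of aged SF and young heads. TpnC73F had 12.6 ± 5.96 reads in aged SF heads, 9.94 ± 3.12 in aged NSF heads and 5.81 ± 0.724 in young heads, and every aged head lay above every young head. In CPM TpnC73F overlapped between all head groups, with log2 changes of -0.02 for aged SF over young and 0.00 for aged NSF over young.

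**Figure D4:**
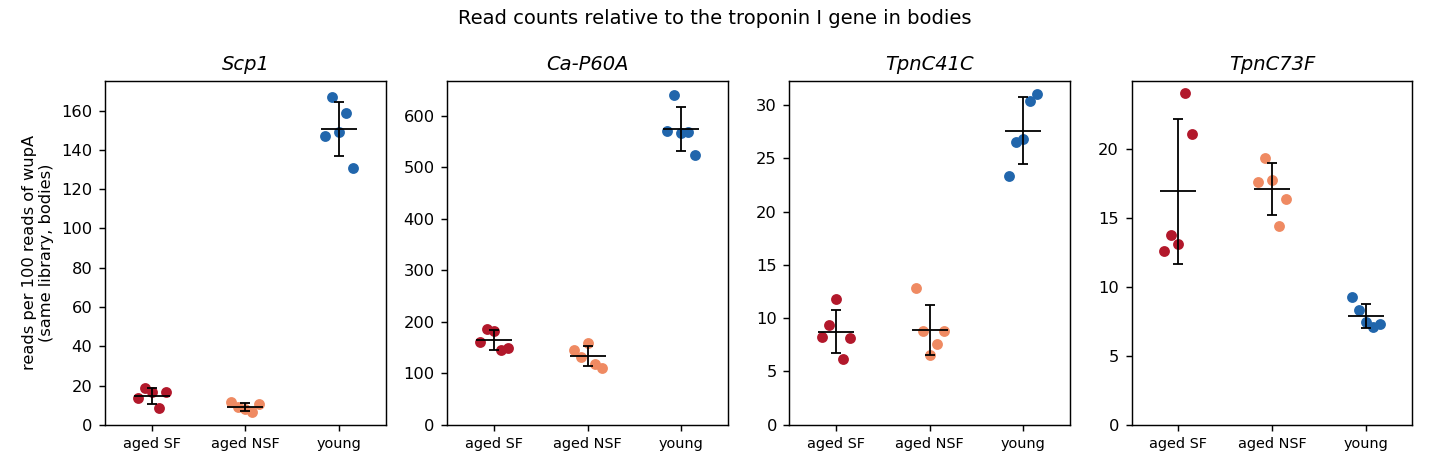
Reads of 4 genes per 100 reads of wupA in the same body library, with 1 point per fly and the mean ± SD (n = 5); each axis starts at 0. Per wupA read, Scp1, Ca-P60A and TpnC41C are lower and TpnC73F is higher in both aged groups than in young bodies. wupA itself fell in aged SF bodies, where TpnC73F in CPM did not pass the edgeR test against young bodies (adjusted p = 0.287).

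Most partners of troponin C on the thin filament fell in aged flies. The list of thin-filament genes and their regulators held 10 genes, 1 of which, fln, encodes a protein of the thick filament. Of the 10, 0 rose and 7 fell in aged SF over young bodies, and 0 rose and 6 fell in aged NSF over young bodies, fln among them in both, with medians of -1.04 and -0.76 against 0.02 and 0.03 over all tested genes. Of all tested genes, 11.1% were called higher and 3.26% lower in the first comparison, and 21.7% and 19.4% in the second. The troponin T gene up fell by 1.38 and 0.86 on the log2 scale, Tm2 fell by 1.14 and 0.74, and the actin genes Act79B and Act87E changed by -2.66 and -2.28 and by -0.99 and -0.78. wupA fell by 0.78 in aged SF over young bodies (adjusted p = 0.0016) and stood at -0.34 ± 0.14 in aged NSF over young bodies (adjusted p = 0.0539), where it passed without aged NSF bodies 1 and 2 (-0.43, adjusted p = 0.0399) and with RLE scaling (-0.38, adjusted p = 0.0377). Without those bodies tmod, the tropomodulin gene, also passed in aged SF over young bodies (-0.48, adjusted p = 0.0369). Tm1 fell in aged SF over young bodies (-0.79, adjusted p = 0.00181) and was not called in aged NSF over young bodies (-0.24, adjusted p = 0.172). Act88F passed in neither, at -1.09 ± 0.44 and -1.01 ± 0.44. In heads 7 and 6 of the 10 fell and 0 rose, with up at -1.28 and -0.78, wupA at -1.18 and -0.79, Tm1 at -1.02 and -0.82, Tm2 at -1.39 and -0.97 and Act88F at -3.32 and -2.26 for aged SF and aged NSF over young. Of all genes tested in heads, 12.2% and 11.5% were called lower in these comparisons.

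Thick-filament genes fell as well. Of 9 such genes, 0 rose and 8 fell in aged SF over young bodies, and 1 rose and 8 fell in aged NSF over young bodies. The shares of all tested genes called higher and lower were 11.1% and 3.26% in aged SF, and 21.7% and 19.4% in aged NSF. Mhc, the myosin heavy chain, had 723 ± 183 CPM in aged SF bodies, 877 ± 245 CPM in aged NSF bodies and 1878 ± 66.2 CPM in young bodies, a log2 change of -1.33 ± 0.18 (adjusted p = 0.000262) and -1.10 ± 0.18 (adjusted p = 0.00044). The light chain gene Mlc1 changed by -1.32 and -0.83 and Unc-89, a giant protein of the M line, by -1.05 and -0.99. The one that rose was sls, the fly titin, at 0.44 ± 0.14 (adjusted p = 0.0182), which was at 0.29 (adjusted p = 0.138) when aged NSF bodies 1 and 2 were left out. In heads 6 and 5 of the 9 fell and 0 rose, led by Mhc at -1.41 and -1.34 and Mlc2 at -1.27 and -1.18. There 12.2% and 11.5% of all tested genes were called lower.

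Among 9 tested genes of calcium release, uptake and entry, the pump gene Ca-P60A stood out by size. It had 665 ± 126 CPM in aged SF bodies, 742 ± 149 CPM in aged NSF bodies and 4068 ± 360 CPM in young bodies, a log2 change of -2.57 ± 0.16 (adjusted p = 1.75e-07) and -2.45 ± 0.16 (adjusted p = 1.25e-07). In heads it had 532 ± 45.3, 534 ± 118 and 2136 ± 260 CPM, a change of -2.01 ± 0.14 in both comparisons. No aged library reached a young one in either tissue. RyR, the release channel, fell in bodies by 0.95 and 0.91 and stood at -0.24 and -0.26 in heads, which did not pass. In all, 0 rose and 2 fell in aged SF over young bodies, against 1 (Stim, the store sensor, at 0.35) and 4 in aged NSF over young bodies. Of all tested genes, 11.1% were called higher and 3.26% lower in aged SF, and 21.7% and 19.4% in aged NSF. Calx, the sodium-calcium exchanger gene, fell by 0.69 in aged NSF over young bodies and stood at -0.41 in aged SF over young bodies (adjusted p = 0.0588), where it passed when aged NSF bodies 1 and 2 were left out (-0.43, adjusted p = 0.0165). In that fit olf186-F, the store-operated channel gene, was no longer called in aged NSF over young bodies (-0.39, adjusted p = 0.0645). In heads 0 rose and 2 fell in each comparison, Ca-P60A and Calx. There 12.2% and 11.5% of all tested genes were called lower in aged SF and aged NSF over young.

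Other EF-hand protein genes were called in both directions in bodies, as was the case over all genes. Of 11 tested, 1 rose and 1 fell in aged SF over young bodies, and 4 rose and 1 fell in aged NSF over young bodies. Of all tested genes, 11.1% were called higher and 3.26% lower in the first comparison, and 21.7% and 19.4% in the second. Cam, the calmodulin gene, rose by 0.70 ± 0.12 in aged NSF over young bodies (adjusted p = 0.000446) and stood at 0.36 ± 0.12 in aged SF over young bodies (adjusted p = 0.0501). Mlc-c, a cytoplasmic myosin light chain gene, rose in both, by 0.51 and 0.63, and the neuronal sensor gene Frq1 rose by 0.89 in aged NSF. Cbp53E, a calbindin-like gene of neurons, fell by 0.72 and 0.36. Scp2, a second sarcoplasmic calcium-binding protein gene, passed in no comparison with young flies when all libraries were fitted: it was at -0.70 ± 0.26 in aged SF bodies (adjusted p = 0.0851), -0.31 ± 0.26 in aged NSF bodies, -0.24 ± 0.14 in aged SF heads and -0.31 ± 0.14 in aged NSF heads. When aged NSF bodies 1 and 2 were left out, Scp2 passed in aged SF over young bodies (-0.72, adjusted p = 0.0237), as did Cals (0.54, adjusted p = 0.0264). In aged NSF over young bodies Cbp53E (adjusted p = 0.145) and Cals (adjusted p = 0.101) were then no longer called. In heads 7 and 4 fell and 1 rose, with Cbp53E at -0.88 in both comparisons, Eip63F-1 at -0.78 and -0.56, and Mlc-c as the one that rose, by 1.07 and 0.91. Of all genes tested in heads, 12.2% and 11.5% were called lower and 13% and 11.4% higher in aged SF and aged NSF over young.

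The interaction between tissue and age was also read over these lists. Over all tested genes it passed for 13.2% in aged NSF over young and 6.86% in aged SF over young. For aged NSF over young it passed for 6 of 11 other EF-hand genes, in each with the higher aged over young change in bodies (Cam at 0.87, Eip63F-1 at 0.91 and Frq1 at 1.03), and for Act79B alone of the 10 genes of the thin-filament list. For aged SF over young it passed for 4 of the EF-hand genes, including Cals at 1.04, again with the higher change in bodies, and in the thin-filament list for Act79B, fln at -3.19 and Act88F at 2.32. With RLE scaling the EF-hand counts were 3 for aged NSF (Cam, Eip63F-1 and Frq1) and 2 for aged SF, still with 0 in the other direction, and Act88F was not called (2.08, adjusted p = 0.0871). CanB2 was also called for aged SF (0.70, adjusted p = 0.041), and fln for aged NSF (-3.17, adjusted p = 0.0064), when aged NSF bodies 1 and 2 were left out. Of 9 genes of calcium release, uptake and entry, 1 was called for aged NSF and 0 for aged SF. With RLE scaling it was 3 and 1, all with the lower change in bodies. Of the thick-filament and Z-disc genes 0 were called, against 1 in each list for aged SF with RLE scaling, lower in bodies. Muscle energy supply had 1 call for aged NSF and muscle transcription factors 1 for each, higher in bodies. The transcription factor call for aged SF was lost with RLE scaling.

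**Figure D5:**
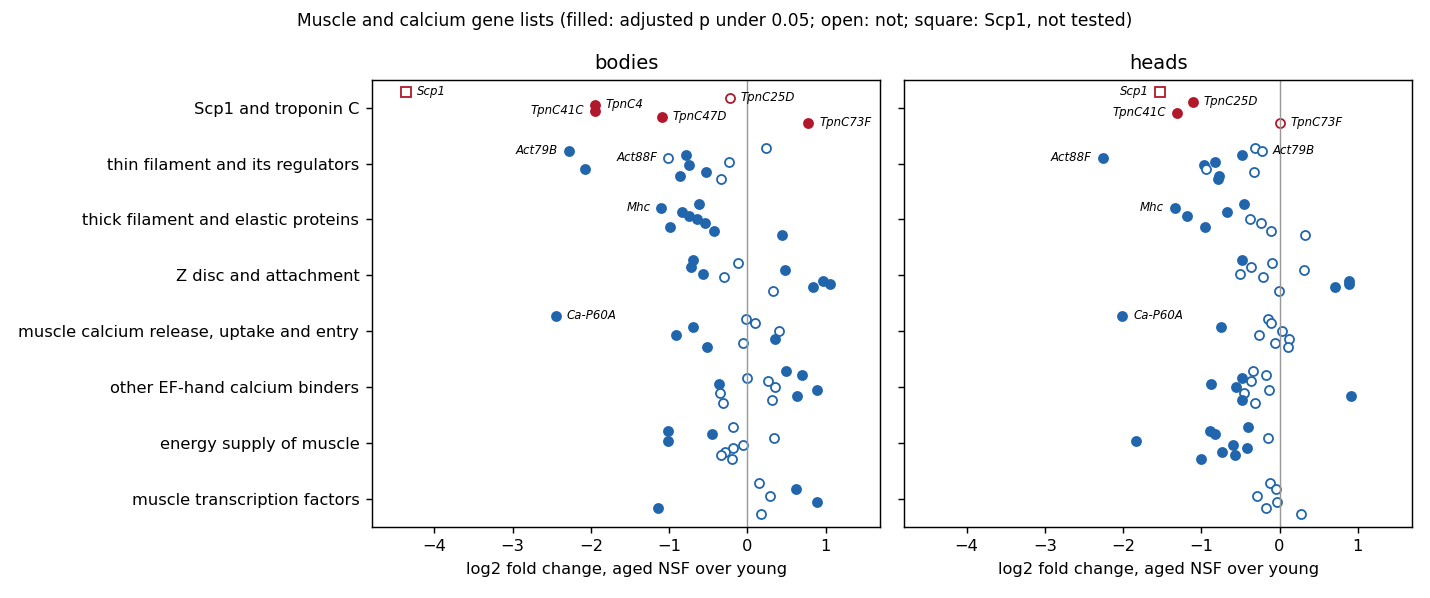
Log2 fold change of aged NSF over young for the members and for 7 muscle and calcium gene lists, in bodies and heads; 1 point per gene, filled where the adjusted p was under 0.05. Thin- and thick-filament genes lie mostly to the left of 0 in both tissues, and the other EF-hand genes lie on both sides.

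Z-disc and attachment genes were called in both directions in bodies, as was the case over all genes. Of 10 tested, 2 rose and 4 fell in aged SF over young bodies and 4 rose and 3 fell in aged NSF over young bodies. Of all tested genes, 11.1% were called higher and 3.26% lower in the first comparison, and 21.7% and 19.4% in the second. The capping protein gene cpb (0.56 and 1.06) and the filamin gene jbug (0.70 and 0.84) rose, and Zasp52 (-0.86 and -0.57) and Actn (-0.88 and -0.70), both of the Z disc, fell. In heads 3 rose and 3 fell in aged SF over young and 3 rose and 1 fell in aged NSF over young, with cpa at 1.10 and 0.89. Of all genes tested in heads, 13% and 11.4% were called higher and 12.2% and 11.5% lower in these comparisons. Mlp60A passed in aged SF over young bodies when aged NSF bodies 1 and 2 were left out (-0.58, adjusted p = 0.013). Of 10 genes of muscle energy supply, 0 rose in any of the 4 comparisons with young flies. In bodies 7 fell in aged SF and 3 in aged NSF, where 3.26% and 19.4% of all tested genes were called lower. They were led by Argk, arginine kinase, at -1.16 and -1.01 and Gapdh1 at -1.16 and -0.45. PyK was called as well in aged SF when aged NSF bodies 1 and 2 were left out (-0.60, adjusted p = 0.0165). In heads 8 and 9 fell, where 12.2% and 11.5% of all tested genes were called lower. They were led by Gpdh, glycerol-3-phosphate dehydrogenase, at -1.75 and -1.84 and the ADP/ATP carrier sesB at -0.93 and -1.01. Of 6 tested muscle transcription factors, 0 passed in heads, where 25.2% and 22.8% of all tested genes did. In bodies hth (0.65 and 0.89) and ct (0.62 and 0.62) rose in both comparisons, though not in aged SF with RLE scaling (adjusted p = 0.0589 and 0.0929) and, for ct, not in aged NSF without aged NSF bodies 1 and 2 (adjusted p = 0.0792), and salm, which specifies fibrillar flight muscle, fell by 1.14 in aged NSF over young. The 7 lists held no called gene in aged SF over aged NSF in either tissue.

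Likeness to each member was measured as Pearson's r of log2 CPM over the 15 libraries of a tissue, which share the differences between the 3 groups, and again after each group's mean was taken out. In bodies the 5 genes most like Scp1 were Ca-P60A (r = 0.99), CG9297 (0.98), Act79B (0.97), SdhA (0.97) and CG7409 (0.96). About the group means these were 0.79, 0.64, 0.76, 0.64 and 0.76. Those most like TpnC41C were CG9090, CG7409, Act79B, CG9297 and CG7580, at 0.97 to 0.98, so that 3 genes stood on both lists. Scp1 and TpnC41C themselves had r = 0.95, and 0.85 about the group means. In heads the genes most like TpnC25D were wupA, Pis, CG1970, up and Tm1, at 0.95 to 0.97. Of these, wupA, up and Tm1 are its thin-filament partners, with 0.85, 0.78 and 0.81 about the group means.

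The lists of the other members shared no gene with these. They were Mlp60A, a muscle LIM protein gene, Oscp, Sod and CoIV, with another gene, for TpnC25D in bodies (0.86 to 0.90). For TpnC4 in bodies they were CG13807, Las, CG34170, CG14757 and Ufd1-like (0.87 to 0.92), and for TpnC47D in bodies CG4000, Aldh, CG43319, CG18031 and Cyp312a1 (0.90 to 0.93). TpnC73F in bodies was most like CG3719, CG32284, CR42715, bru-3 and noe (0.89 to 0.90), and its r with Scp1 was -0.61 (0.11 about the group means). In heads the lists were FoxP, dpr19, NP15.6, Cyp4s3 and mt:Cyt-b for Scp1 (0.84 to 0.87), mt:CoII, CG32576, CG3214, CG14963 and Dak1 for TpnC41C (0.88 to 0.90), and ubl, ave, mRpL13, CG2016 and CG3436 for TpnC73F (0.78 to 0.85).

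Genes next to Scp1 on the chromosome were not called lower in aged bodies. The nearest tested genes, CG41378 at 85887 bases and CG42596 at 98447 bases, were at 0.10 and 0.12 for aged SF over young and at 0.35 and 0.31 for aged NSF over young on the log2 scale, and none of these passed the test. Beyond them MFS17 passed in neither comparison, at 0.22 and 0.09, and uex, a magnesium transporter gene 932233 bases away, stood at 0.41 (adjusted p = 0.185) in aged SF and rose by 0.71 (adjusted p = 0.0123) in aged NSF. Of the neighbours of the 5 troponin C genes, 2 fell in aged NSF over young bodies. They were CG13223, 15078 bases from TpnC47D, at -2.14 (adjusted p = 0.0192), and CG7742, 1620 bases from TpnC25D, at -1.11 (adjusted p = 0.00644). In aged SF over young bodies these were at -0.86 (adjusted p = 0.331) and -0.52 (adjusted p = 0.224). Other neighbours rose in aged NSF over young bodies: tkv, Fis1, CG17508, gus, CG9067 and Vhl, by 0.43 to 0.70. Of these, tkv (0.55) and gus (0.59) also rose in aged SF. Of all tested genes, 19.4% were called lower and 21.7% higher in aged NSF, and 3.26% and 11.1% in aged SF. All neighbours were looked up after the data had been seen.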

How the data were processed

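Gene counts of 30 libraries, each from the body or head of a single male fly, were used as deposited. Per the series' design text and the submitters' processing notes, the authors trimmed reads with Trimmomatic, aligned them with STAR to dm6, removed reads of mapping quality below 8 and non-primary alignments, and counted reads over exons with HTSeq-count; versions, annotation release and strand setting are not given in the sources used here. The authors' deposited DESeq2 table was not used: it names none of the 6 genes.

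Counts were tested with the quasi-likelihood test of edgeR 4.0.16 (R 4.3.3, TMM scaling, filterByExpr, robust), in a fit of 15 libraries for each tissue and a fit of 30 libraries for contrasts between tissues, with Benjamini-Hochberg adjustment over all tested genes and a threshold of 0.05. Alternatives were RLE scaling, other filters (none, or at least 5 CPM in 5 libraries), DESeq2 1.42.0, limma 3.58.1 (voom with quality weights), the replicate number as a block (also for a body and head of 1 condition and number), fits of 2 groups, and libraries left out. The edgeR fit was also run on simulated counts in which few genes changed, in aged NSF libraries only. That run does not bear on the choice of scaling, where far more genes differed. CPM use TMM-scaled totals, and RPKM divide them by the exonic length in an Ensembl release 115 annotation of the same assembly, which holds 17253 of the 17559 gene IDs. Each library is 1 fly and all carry 1 batch label; the labels give no litter or culture, so p-values measure the spread between these flies. No pair of replicates was a copy of the other (lowest chi-square per degree of freedom 4.5).

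The members and gene lists were chosen with earlier results of these data known, as was the choice to leave out aged NSF bodies 1 and 2. Genes named are the members, the partners up, wupA, Tm1, Tm2, Act88F, Mhc and Ca-P60A, up to 3 genes of smallest adjusted p from each list with a called member, and the 5 genes of highest r for each member of at least 5 CPM. Other genes were named after their values were seen.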

Additional observations from a re-analysis of the deposited data

Results flagged for a closer look

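A library was looked for that stands far from the other 4 of its group, for 6 genes in 6 groups, 36 groups in all; chance alone flags about 1 in 20 groups. It was found for 2 genes, in the same library. Aged NSF head 5 had the highest Scp1 level of its group, 8.83 CPM from 15 reads, and also the highest TpnC41C level, 37.7 CPM. The gap to the next head took up 0.758 of the group's range for Scp1 and 0.751 for TpnC41C.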

How the results depend on the processing

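Of 25 troponin C results that passed the test, 195 of 196 other fits and 594 of 600 fits with 1 library left out kept direction and call. Most of these fits were of body over head results, and results that were not called are outside this tally. In aged NSF over young bodies TpnC4 lost its call in 4 and TpnC47D in 1 of 15 fits with 1 library left out. The 12 Scp1 differences moved by less than the pooled SD of log2 CPM within groups in all 92 other fits and 270 fits with 1 library left out. Some moved by more than 1 SE: body over head in aged NSF flies reached 4.43 without aged NSF head 5, and aged SF over aged NSF in bodies reached 0.59 with limma voom. In aged NSF over young heads the fit of 2 groups called 1 troponin C gene in place of 2. In aged SF over young bodies the count of 2 became 4 without aged NSF bodies 1 and 2, and 4 in the fit of 2 groups. With 1 library left out it ran from 2 to 4 there (4 without aged NSF body 1), from 2 to 4 in aged NSF over young bodies (2 without young body 4) and from 4 to 5 for body over head in aged NSF flies. For the tissue difference of aged NSF over young, DESeq2 called 1 gene in place of 0 (TpnC47D). For that of aged SF over young, DESeq2 called 1 (TpnC47D), limma voom 1 (TpnC25D) and the fit without aged NSF bodies 1 and 2 called 1 (TpnC25D); with 1 library left out it was 0 to 1, with 1 without young body 4, aged NSF body 1, young head 1 or aged SF head 5. The cause was not tested.

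Over all genes, the 1727 calls in aged SF over young bodies became 4265 with limma voom, 3402 without aged NSF bodies 1 and 2, 3369 in the fit of 2 groups and 1087 to 3391 with 1 library left out. The 0 calls of aged SF over aged NSF bodies became 641 with DESeq2, 417 with limma voom, 205 without aged NSF bodies 1 and 2, 5 with RLE scaling or the filter at 5 CPM, and 0 to 250 with 1 library left out. The 23 calls in heads became 56 with no filter, 82 with DESeq2, 43 with limma voom, 36 in the fit of 2 groups and 9 to 61 with 1 library left out. The tissue difference of aged SF over young had 845 calls, against 1464 with limma voom, 564 with no filter and 422 to 1026 with 1 library left out, and that of aged NSF over young had 1622, against 991 to 1885. RLE scaling split these calls into 250 higher and 343 lower, and 534 and 833, against 645 and 200, and 1088 and 534, with TMM. That of aged SF over aged NSF had 0, against 128 with DESeq2 and 0 to 13 with 1 library left out.

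The replicate numbers did not pair the samples of a tissue: deviations of same-numbered libraries correlated at -0.12 to 0.43 in bodies, over 0.1 in 5 of 15 pairs, and at -0.04 to 0.15 in heads, in 3 of 15. With the replicate number as a block, TpnC4 in aged SF over young bodies reached -1.73 (adjusted p = 0.0467) and no other troponin C call changed; 63 genes were called in aged SF over aged NSF heads. No label says that a body and a head of 1 number came from the same fly. Their deviations correlated at 0.05 to 0.28, over 0.1 in 11 of 15 pairs, which did not reach the rule that every pair exceed it. With a replicate block for each such pair, an alternative added after the data were seen, no troponin C call between tissues changed: 5 genes were called in each condition for body over head and 0 for each tissue difference. Over all genes 1038, 1978 and 3 tissue differences were called for aged SF over young, aged NSF over young and aged SF over aged NSF. Act88F was not called for aged SF over young (2.12, adjusted p = 0.078). The list counts under RLE scaling and without aged NSF bodies 1 and 2 were also added after the data were seen; with RLE scaling Mlc-c was not called in aged SF over young bodies (0.43, adjusted p = 0.0635). Depth limited Scp1 in heads. It also limited TpnC4 and TpnC47D, which were not tested within heads and entered the fit of both tissues through bodies.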
